A study of Mus musculus with 12 samples.

Results

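The genes described are Cd74 and 9 genes of MHC class I antigen presentation, namely the heavy chain genes H2-K1 and H2-D1, the light chain gene B2m, the transporter and loading genes Tap1, Tap2 and Tapbp, and the immunoproteasome genes Psmb8, Psmb9 and Psmb10. They were taken by name, and all 10 of them are among the 16385 genes of the expression table. MHC class I molecules carry peptides of cytosolic proteins to the cell surface, where CD8+ T cells read them. The peptides are cut by the proteasome, pumped into the endoplasmic reticulum by the TAP transporter and loaded onto a heavy chain paired with beta-2 microglobulin. Cd74 encodes the invariant chain, which occupies the groove of MHC class II molecules until the endosome and which also serves as a receptor for the cytokine Mif. Most of the class I pathway is induced by interferon in many cell types, and it is expressed at a basal level in nearly all nucleated cells.

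The expression values come from AtT-20, a mouse tumor line of pituitary corticotropes, the cells that make Pomc. Each group is a pool of Geneticin-resistant colonies made with a retrovirus that expresses 1 Pax protein, and 2 RNA-Seq libraries of each of 6 groups were used. The groups are Pax7 NoTag, whose label gives no isoform, the mutant Pax7-465, which ends at residue 465, the isoforms Pax7 Q-GL-, Pax7 Q+GL+ and Pax7 Q-GL+, and Pax3, the closest relative of Pax7. In the isoform names, Q stands for a glutamine and GL for glycine plus leucine, which splicing adds to or leaves out of the DNA-binding paired domain. The paper labels its Pax7 deletion mutants as Q+GL-, and describes Pax3 as Q+GL- too. No group here is labelled as the full-length Q+GL- isoform, the reference of the paper. Pax7-465 therefore differs from each isoform here in Q, GL or both, besides the missing end of the protein. The vector drives the introduced gene from the CMV promoter and adds Flag tags to both ends of the protein, which the NoTag label denies for that group. The groups are pools and not single clones, all groups share the AtT-20 background, and control cells were not analysed here. The methods call the libraries of a group biological replicates, but since nothing says that the 2 came from separate cultures, p-values measure only the spread between these libraries.

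Of the 10 genes, 7 lie on chromosome 17 of GRCm38, where Psmb9 (34181987 to 34187764, minus strand), Tap1 (34187553 to 34197225, plus strand), Psmb8 (34197721 to 34201454) and Tap2 (34203527 to 34216321) follow each other, with H2-K1 (33996017 to 34000333, minus strand), Tapbp (33915899 to 33929288) and H2-D1 (35262730 to 35267499) nearby. B2m lies on chromosome 2 (122147686 to 122153083) and Psmb10 on chromosome 8 (105935728 to 105938392, minus strand). Tap1 and Psmb9 overlap at their 5′ ends on opposite strands, and whether the counting used strand is not given in the sources used here. H2-K1 and H2-D1 are near-identical in long stretches, and so are H2-T22 and its neighbours. How reads shared between such genes were divided is not given either, so the split between H2-K1 and H2-D1 is uncertain.

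The sequences below show letter matches to textbook elements of class I promoters, for the genes on which the results turn. They are 30-base stretches 5′ to 3′ on the strand of the gene, from RefSeq windows of GRCm38.p6. Whether a match is a working element was not tested. Capitals mark matches, on either strand, to GGGGATTCC of the enhancer A core or to 1 of 2 forms of the interferon response element, TTTCNNTTC and TTTCNNTTT.
H2-D1, chr17:35262923-35262952, plus strand: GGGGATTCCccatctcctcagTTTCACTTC
H2-K1, chr17:34000429-34000458, minus strand: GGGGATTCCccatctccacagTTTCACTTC
B2m, chr2:122147539-122147568, plus strand: taagaacatgAAACTGAAAatgggaaagtc
H2-T23, chr17:36032806-36032835, minus strand: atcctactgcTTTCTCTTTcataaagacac
H2-T22, chr17:36042914-36042943, minus strand: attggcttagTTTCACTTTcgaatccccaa

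The stretches of H2-D1 and H2-K1 are equal at 29 of 30 positions and differ by A18T, counted from 1 at the 5′ end with the base of H2-K1 first. All 5 stretches lie between 96 and 201 bases before a RefSeq start, and those of H2-D1 and H2-T23 fall inside the longer gene spans of the expression table. No match overlaps another. Of all 32851 such windows, each of 250 bases before to 50 after a start, 0.25% hold GGGGATTCC, 7.52% TTTCNNTTC and 10.6% TTTCNNTTT. Windows of 8 of the 10 genes were matched, and those of Tap1, Tapbp, Psmb8, Psmb9 and Psmb10 hold none of these letters. Windows of Tap2 and Cd74 were not used here.

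The summed FPKM was 413794 to 483161 in the 10 libraries other than NoTag, against 627305 to 666609 in the NoTag libraries, and 733 genes were above 0 in both NoTag libraries and at 0 in all others. The NoTag libraries stand apart, so comparisons with them are given last, and a fit without them was run for all others. FPKM values are scaled to gene length and library size, and since no read counts are given the absolute depth is unknown. The introduced Pax7 was at 93.9 to 113 FPKM in the 4 Pax7 groups other than NoTag, against 0.159 and 0.161 FPKM in Pax3 cells. The corticotrope genes Tbx19, at 116 to 143 FPKM over all 12 libraries, and Pomc, at 5110 FPKM or more, were present in every library. Of 12 immune cell markers 3 are in the table, and their summed level was 0.275 to 1.39 FPKM in the 5 groups other than NoTag and 1.63 and 2.06 FPKM in NoTag, with the macrophage receptor gene Csf1r at 0 in each of the 10 libraries other than NoTag. The 2 fibroblast markers in the table summed to at most 1.07 FPKM and the endothelial marker Pecam1 was at most 0.15 FPKM. In bulk RNA, fewer cells expressing a gene and less of its RNA per cell cannot be told apart.

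Levels of the 10 genes are given first. In the 5 groups other than NoTag, H2-K1 was highest, at 196 to 246 FPKM, followed by H2-D1 at 145 to 209 FPKM and B2m at 65.1 to 89.8 FPKM. Tapbp, whose product tapasin bridges empty class I molecules to TAP, was at 21.3 to 31.1 FPKM. Psmb8 was at 13.6 to 20.9 FPKM and Tap2 at 8.55 to 12.2 FPKM, while Tap1, the partner of Tap2 in the transporter, was at 2.58 to 3.69 FPKM. Psmb9 at 1.07 to 2.38 FPKM and Psmb10 at 0.937 to 1.71 FPKM were the lowest class I genes. Cd74 ran from 1.09 to 9.38 FPKM, so that its highest group mean was 7.90 times its lowest, whereas for the 9 class I genes this ratio was 1.21 to 1.44. All 10 genes passed the filter of at least 1 FPKM in at least 2 libraries.

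In a test for any difference among the 5 groups other than NoTag, 2 of the 10 genes passed, Cd74 (limma adjusted p = 8.9e-06) and H2-D1 (adjusted p = 0.025), while 4.78% of the 12578 genes tested did. Fold changes below are on the log2(FPKM + 1) scale, which understates the change of low genes such as Cd74, and a gene passed where its adjusted p was under 0.05. Leaving out either Q-GL- library or either Q-GL+ library left Cd74 as the only gene of the 10 that passed this test.

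Cd74, on chromosome 18, fell into 3 levels. It was 8.13 and 9.38 FPKM in Pax7 Q+GL+ cells and 7.28 and 8.45 FPKM in Pax7 Q-GL- cells. In Pax7-465 cells it was 2.63 and 3.28 FPKM, and in Pax3 cells 3.64 and 4.45 FPKM. Only in Pax7 Q-GL+ cells was it near 1, at 1.09 and 1.13 FPKM, below each of the other 10 libraries. The NoTag libraries, at 3.62 and 4.71 FPKM, overlapped those of Pax3.

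**Figure D1:**
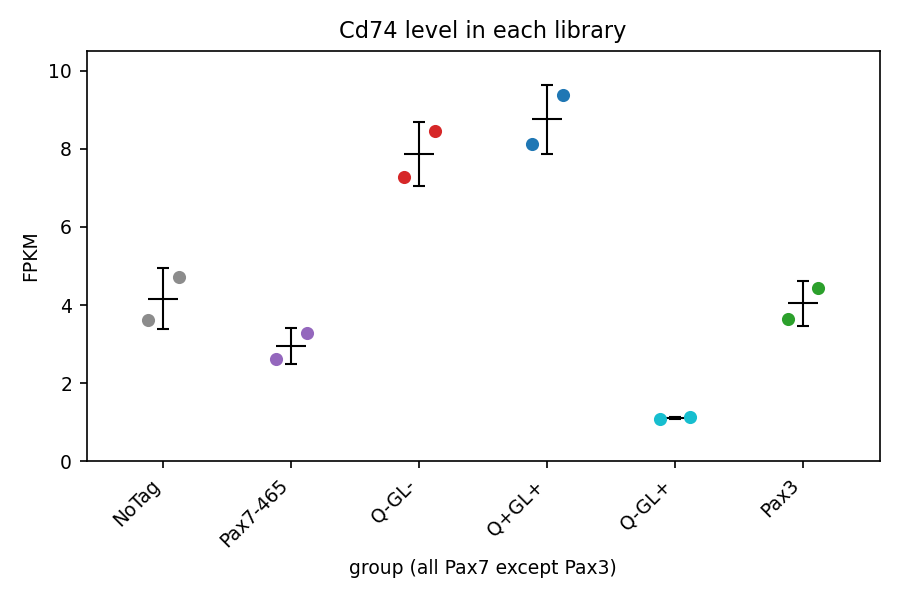
Cd74 in FPKM (vertical axis) in each of the 6 groups (horizontal axis), with 1 point per library and the mean ± SD of 2 libraries in black. The Q-GL- and Q+GL+ libraries sit between 7.28 and 9.38, and the Q-GL+ libraries at 1.09 and 1.13.

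Between the isoforms, Cd74 was higher in the Q-GL- libraries than in those of Q-GL+, with means of 7.87 ± 0.83 and 1.11 ± 0.033 FPKM (SD, n = 2 each), a ratio of 7.09. Its log2 fold change was 2.07 (standard error 0.14, limma adjusted p = 6.8e-06). Q+GL+ cells were likewise higher than Q-GL+ cells, by 2.21 (adjusted p = 2.3e-05) and a ratio of 7.90. With a pseudocount of 0.1 the same changes were 2.72 and 2.87. Both passed under all 10 alternative settings, at no less than 1.97 and 2.11. The difference of Q-GL- from Q+GL+ cells did not pass, at −0.14 with a 95% interval of −0.44 to 0.16 (adjusted p = 0.72).

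Set beside Pax3 cells, Cd74 was higher in Q-GL- cells, at 0.82 (adjusted p = 0.0054), and in Q+GL+ cells, at 0.95 (adjusted p = 0.022), and lower in Q-GL+ cells, at −1.25 (adjusted p = 0.0030). The decrease in Q-GL+ passed under all 10 alternatives. The Q-GL- increase did not pass without Pax3 replicate 1 (adjusted p = 0.060) or without Q-GL- replicate 2 (adjusted p = 0.073), and the Q+GL+ increase did not pass without a filter (adjusted p = 0.062), without Pax3 replicate 1 (0.155) or without Q+GL+ replicate 1 (0.099) or 2 (0.238).

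Pax7-465 cells were intermediate in Cd74. The log2 fold change was −1.17 against Q-GL- (adjusted p = 0.0028), −1.31 against Q+GL+ (adjusted p = 0.00053) and 0.90 against Q-GL+ (adjusted p = 0.015). Against Pax3 the difference was −0.35, with an interval of −0.65 to −0.05 and an adjusted p of 0.35. The call against Q+GL+ held in every alternative run. That against Q-GL- was lost without Q-GL- replicate 2 (adjusted p = 0.051), and that against Q-GL+ without Pax7-465 replicate 2 (0.106) or without Q-GL+ replicate 1 (0.115) or 2 (0.105).

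The order of Cd74 was not that of Pcsk2, the prohormone convertase of melanotropes, a pituitary cell type that depends on Pax7. Pcsk2 was 11.7 and 12.5 FPKM in Q+GL+ cells, against 16.2 and 15.5 FPKM in Q-GL+ cells. Its log2 fold change was −0.36 (adjusted p = 0.044) where that of Cd74 was 2.21. In Q-GL- cells it was 35.8 and 36.6 FPKM, and higher than in Q-GL+ cells by 1.14 (adjusted p = 5.8e-06). The Pcsk2 calls were not recomputed under the alternatives. Pcsk2 and Cd74 thus moved the same way in Q-GL- cells and opposite ways in Q+GL+ cells, relative to the same Q-GL+ libraries. Mean Pcsk2 was 21.4 FPKM in Pax7-465 and 18.0 FPKM in Pax3 cells. Both means lay between those of Q-GL- and Q-GL+, as they did for Cd74. A link between the 2 genes was not tested.

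Since Cd74 is abundant in antigen-presenting cells, the summed immune cell markers are set beside it. They were at 0.5 and 0.571 FPKM in the Q-GL- libraries and at 1.39 and 1.2 FPKM in the Q+GL+ libraries, against 0.59 and 0.841 FPKM in the Q-GL+ libraries. Relative to Q-GL+, the sum was lower in Q-GL- and higher in Q+GL+, while Cd74 was higher in both. The sum holds only 3 of 12 listed markers, all at low levels. The part of immune cells in any of the Cd74 differences was not tested.

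Of the proteins that Cd74 works with, only few genes were measured. Of 25 MHC class II genes and invariant chain partners on the list, 13 are in the table and 11 were tested. H2-DMa, a chain of the peptide exchange factor, was 1.03 to 1.91 FPKM in the 5 groups other than NoTag, while H2-DMb1, its partner chain, was listed at 0 in all 10 of these libraries and H2-Eb2, a class II beta chain, was at most 0.53 FPKM. The classical class II chains and the transactivator Ciita were not analysed here. Mif, a ligand of Cd74, was at 780 to 1190 FPKM and passed in no comparison among these groups.

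The only partner past the test in these groups was Ctsl, encoding cathepsin L, a protease that trims the invariant chain in some cell types. It was 165 and 166 FPKM in Q-GL- cells, against 118 and 128 FPKM in Q+GL+, 122 and 111 FPKM in Q-GL+ and 96.7 and 115 FPKM in Pax3 cells. The Q-GL- libraries were above all the others compared. Log2 fold changes of Q-GL- were 0.43 against Q+GL+ (adjusted p = 0.049), 0.51 against Q-GL+ (adjusted p = 0.015) and 0.65 against Pax3 (adjusted p = 0.0030). The change against Pax3 held in all 10 alternatives. That against Q+GL+ was lost without a filter (adjusted p = 0.078), without the NoTag libraries (0.080) and without any 1 of the 4 libraries (0.121 to 0.314), and that against Q-GL+ without Q-GL- replicate 1 (0.095) or 2 (0.104) or without Q-GL+ replicate 2 (0.147). In Q+GL+ cells, where Cd74 was also high, the difference of Ctsl from Q-GL+ was 0.08 (adjusted p = 0.80).

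The class I genes moved less. In Q-GL- against Q-GL+ cells, 4 of the 10 genes were higher and 0 lower by the test, against 3.06% and 1.11% of all genes tested, and the 4 were Cd74, H2-D1, B2m and Tapbp. The median log2 fold change of the 10 genes was 0.28, beside 0.04 for all genes. The libraries of the groups did not overlap for 8 of the 10 genes, and for 51.3% of all genes.

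H2-D1, a classical class I heavy chain, was 209 and 199 FPKM in Q-GL- cells, against 153 and 145 FPKM in Q-GL+ cells. Both Q-GL- libraries were above every other library of the 5 groups. The log2 fold change was 0.45 (standard error 0.08, adjusted p = 0.0089), and against Pax3 cells, at 145 and 155 FPKM, it was 0.44 (adjusted p = 0.010). The first of these calls was lost without Q-GL+ replicate 2 (adjusted p = 0.101) and without Q-GL- replicate 1 (0.095) or 2 (0.057). The second was lost without Pax3 replicate 1 (0.057) and without Q-GL- replicate 1 (0.0997) or 2 (0.060). The log2 fold changes were then 0.39 to 0.49.

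H2-K1, the other classical heavy chain here, was 242 and 246 FPKM in Q-GL- cells, against 224 and 218 FPKM in Q-GL+ cells. The libraries did not overlap, but the log2 fold change was 0.14 with an interval of −0.07 to 0.35 (adjusted p = 0.47). Whether the changes of H2-D1 and H2-K1 differ from each other was not tested.

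B2m was 89.8 and 83.9 FPKM in Q-GL- cells, against 72.3 and 65.1 FPKM in Q-GL+ cells, and higher by 0.34 (standard error 0.09, adjusted p = 0.048). This call sat at the threshold, and it was lost without a filter (adjusted p = 0.066), without the NoTag libraries (0.073) and without any 1 of the 4 libraries (0.081 to 0.331). Tapbp was 31.1 and 28.7 FPKM in Q-GL- cells, against 21.8 and 21.9 FPKM in Q-GL+ cells. The log2 fold change was 0.44 (standard error 0.09, adjusted p = 0.024), and the call too did not pass without any 1 of the 4 libraries (adjusted p = 0.081 to 0.187).

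**Figure D2:**
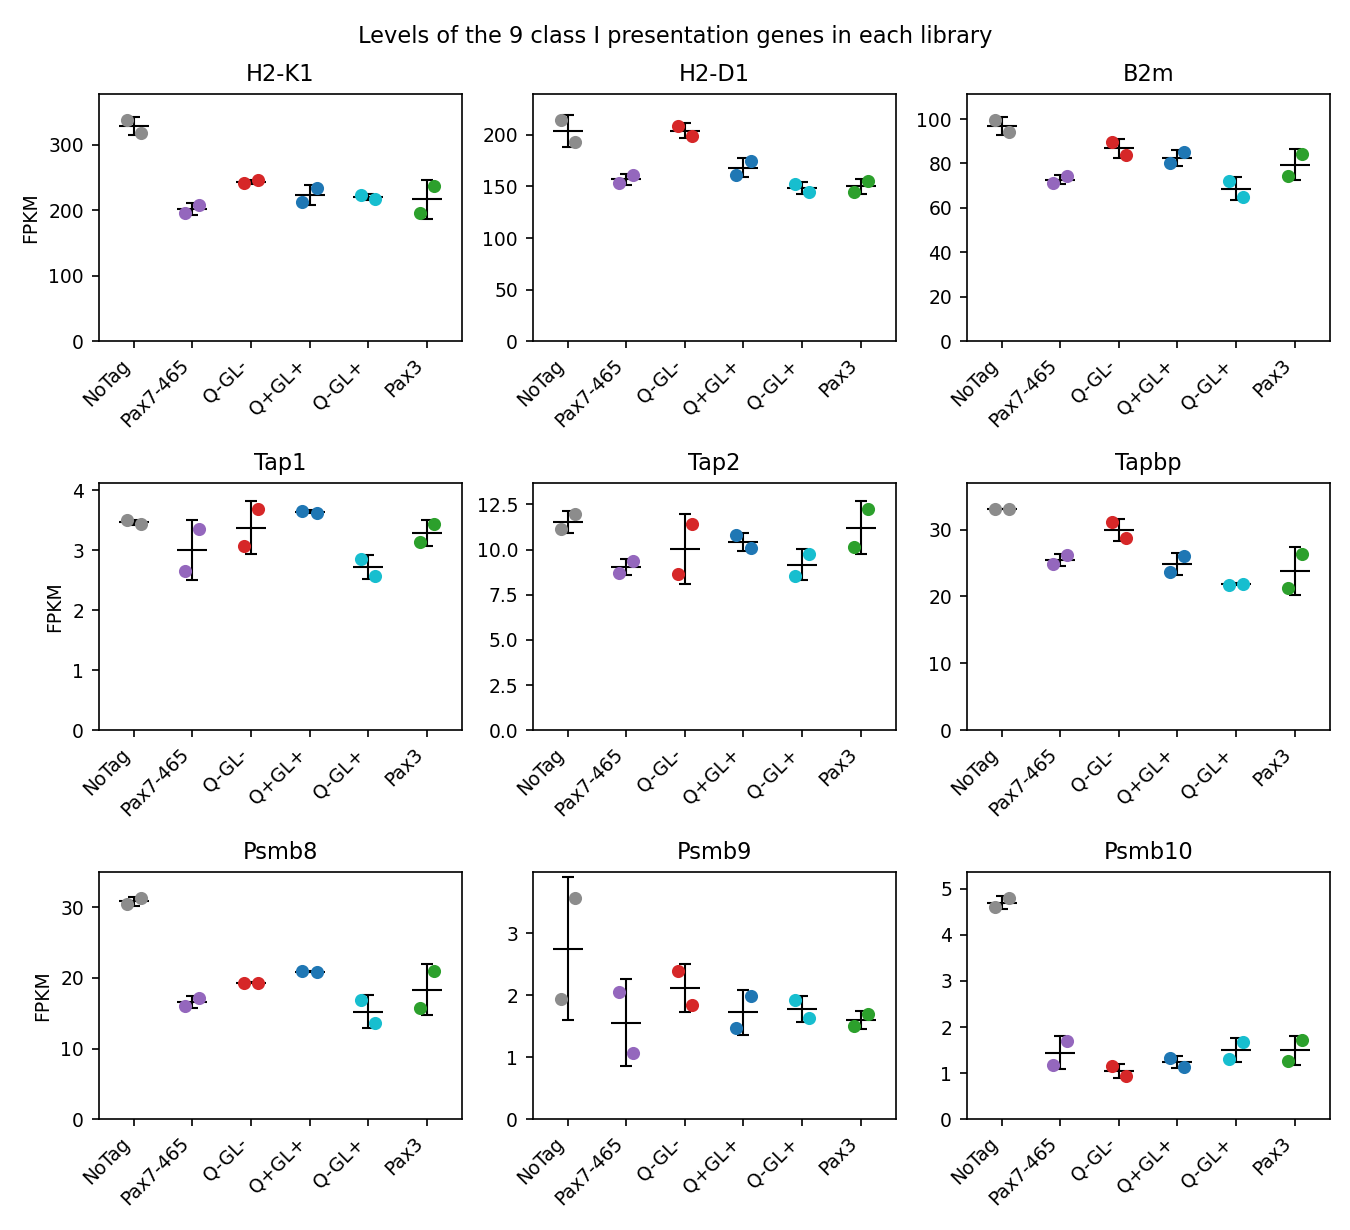
FPKM (vertical axes, each from 0) of the 9 class I presentation genes in the 6 groups (horizontal axes), with 1 point per library and the mean ± SD of 2 libraries in black. H2-D1 in Q-GL- libraries, at 209 and 199, lies above Q+GL+, Q-GL+, Pax7-465 and Pax3, and Psmb10 stands out in NoTag libraries, at 4.60 and 4.80.

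The transporter genes did not pass in Q-GL- against Q-GL+ cells. Tap1 was 3.07 and 3.69 FPKM in the Q-GL- libraries, against 2.86 and 2.58 FPKM in those of Q-GL+, with 0.23 (interval −0.02 to 0.49). Tap2 was 8.65 and 11.4 FPKM in the Q-GL- libraries, against 8.55 and 9.76 FPKM in those of Q-GL+, with 0.11 (interval −0.16 to 0.38). For Tap2 the libraries overlapped. Psmb8 was 19.3 and 19.3 FPKM in Q-GL- cells, against 16.8 and 13.6 FPKM in Q-GL+ cells, at 0.33 (interval 0.07 to 0.59, adjusted p = 0.16). Psmb9, at 2.38 and 1.84 FPKM in Q-GL- cells, against 1.93 and 1.63 FPKM in Q-GL+ cells, was within the spread of its libraries. Psmb10 was the only gene of the 10 with a value below 0, at −0.29 (interval −0.60 to 0.03), with 1.15 and 0.94 FPKM in Q-GL- cells, against 1.31 and 1.68 FPKM in Q-GL+ cells.

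Between the GL+ isoforms, Cd74 was the only gene of the 10 past the test. In Q+GL+ against Q-GL+ cells, 1 of the 10 genes was higher and 0 lower, against 0.453% and 0.509% of all genes. The class I gene with the largest difference was Psmb8, at 20.9 and 20.8 FPKM in Q+GL+ cells, against 16.8 and 13.6 FPKM in Q-GL+ cells, with a log2 fold change of 0.44 (interval 0.18 to 0.70, adjusted p = 0.12). Tap1 was next, at 3.66 and 3.63 FPKM in Q+GL+ cells, against 2.86 and 2.58 FPKM in Q-GL+ cells, with 0.32 (interval 0.07 to 0.58, adjusted p = 0.26). B2m was 80.0 and 85.0 FPKM in Q+GL+ cells, at 0.26 (interval 0.08 to 0.45, adjusted p = 0.19). After quantile normalization both Psmb8 and B2m passed, so that 3 of the 10 genes did. H2-D1, at 162 and 175 FPKM in Q+GL+ cells, had a log2 fold change of 0.18 (adjusted p = 0.39).

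**Figure D3:**
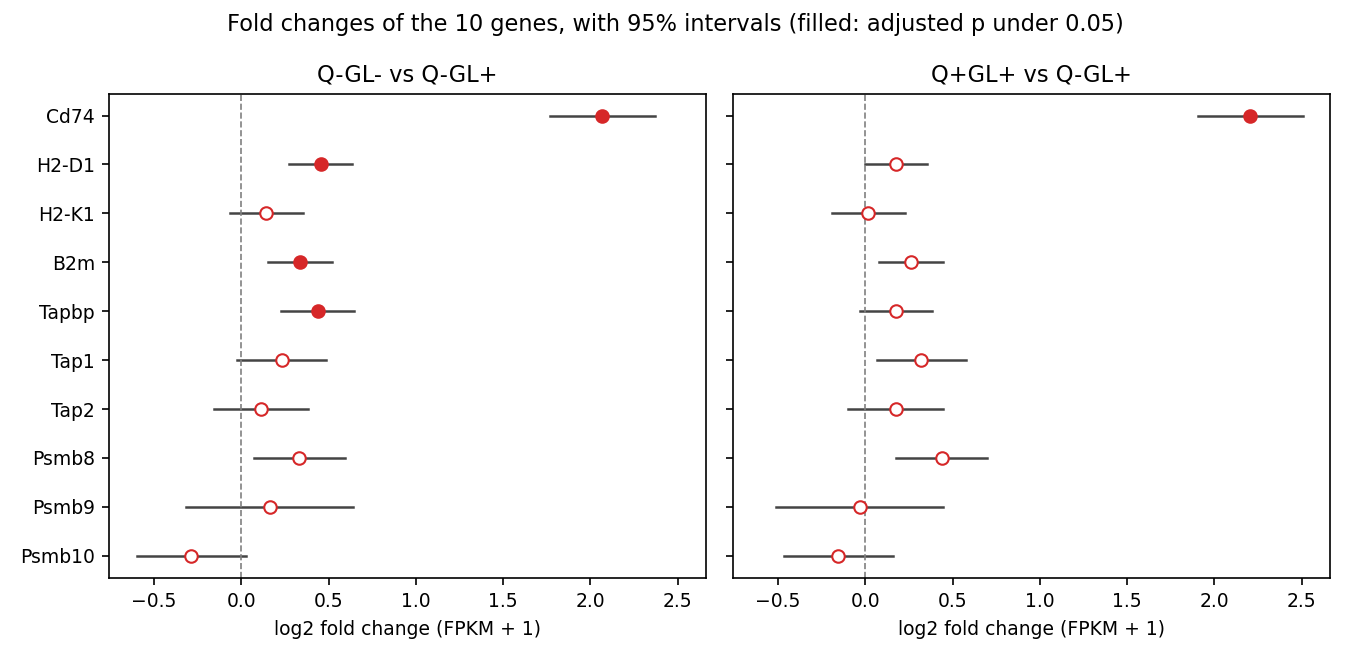
Log2 fold changes of the 10 genes on the log2(FPKM + 1) scale (horizontal axes) with 95% intervals, for Q-GL- over Q-GL+ cells and for Q+GL+ over Q-GL+ cells, with filled points for an adjusted p under 0.05. Cd74 lies at 2.07 and 2.21, and the 9 class I genes lie between −0.29 and 0.45.

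In Q-GL- against Q+GL+ cells 0 of the 10 genes passed by limma, and 2.15% of all genes passed in either direction. At an unadjusted p under 0.05 were 2 of the 10 genes, against 1800 of all 12578 genes tested. The 2 genes were H2-D1, at 0.28 (interval 0.10 to 0.46, adjusted p = 0.13), and Tapbp, at 0.26 (interval 0.05 to 0.47, adjusted p = 0.22). After quantile normalization H2-D1 passed.

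Relative to Pax3, 2 of the 10 genes were higher in Q-GL- cells, Cd74 and H2-D1, against 3.62% of all genes. In Q+GL+ cells 1 was higher, Cd74, against 0.175% of all genes, and in Q-GL+ cells 1 was lower, again Cd74, against 0.207%. In Pax7-465 against Pax3 cells 0 of the 10 genes passed by limma, and 1.16% of all genes passed in either direction. At an unadjusted p under 0.05 were 2 of the 10 genes, against 1369 of all 12578 genes tested. These 2 were Cd74 and Tap2, and Tap2 was 8.71 and 9.37 FPKM in Pax7-465 cells, against 10.2 and 12.2 FPKM in Pax3 cells. In Pax7-465 cells Cd74 was the only gene of the 10 past the test against each isoform, 1 lower against Q-GL- (0.35% of all genes), 1 higher against Q-GL+ (0.501%) and 1 lower against Q+GL+ (0.461%). H2-D1, at 153 and 161 FPKM in Pax7-465 cells, had a log2 fold change of −0.38 against Q-GL- (interval −0.56 to −0.20, adjusted p = 0.092), and passed after quantile normalization.

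Of 19 class I genes outside the 10 on the list, 9 are in the table and 8 were tested. In the Q-GL- libraries 2 of the 8 were lower than in those of Q-GL+ and 0 higher, against 1.11% and 3.06% of all genes, and their median log2 fold change was −0.02 beside 0.04 for all genes. These were H2-T23, which encodes Qa-1, a heavy chain that presents a leader peptide of other class I chains to NK cells, and H2-T22, whose product is bound by gamma delta T cells. H2-T23 was 33.0 and 32.4 FPKM in Q-GL- cells, against 47.2 and 42.6 FPKM in Q-GL+ cells, with a log2 fold change of −0.44 (adjusted p = 0.018). H2-T22 was 9.82 and 9.49 FPKM in Q-GL- cells, against 15.7 and 14.5 FPKM in Q-GL+ cells, at −0.59 (adjusted p = 0.0022), and passed under all 10 alternatives.

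H2-T23 was higher in Q-GL+ cells than in each of the 4 other groups besides NoTag. It was 29.7 and 29.6 FPKM in Pax7-465, 30.2 and 33.2 FPKM in Q+GL+ and 28.1 and 33.7 FPKM in Pax3 cells. The log2 fold changes were −0.58 for Pax7-465 against Q-GL+ (adjusted p = 0.015), −0.49 for Q+GL+ against Q-GL+ (adjusted p = 0.028) and 0.53 for Q-GL+ against Pax3 (adjusted p = 0.023). Each of these, and that of Q-GL- against Q-GL+, was lost without 1 or more libraries. The adjusted p was then 0.050 to 0.126 for Q-GL- (any 1 of the 4 libraries left out), 0.067 to 0.140 for Pax7-465 (any 1 of 4), 0.083 to 0.212 for Q+GL+ (any 1 of 4, and 0.052 without the NoTag libraries) and 0.085 to 0.207 against Pax3 (without Pax3 replicate 1, Q-GL+ replicate 1 or Q-GL+ replicate 2). H2-T22 was 10.3 and 11.7 FPKM in Pax7-465 cells, and also lower there than in Q-GL+ cells, at −0.43 (limma adjusted p = 0.048). The Pax7-465 call was lost without a filter, without the NoTag libraries and without any 1 of the 4 libraries. H2-T22 was 12.3 and 12.2 FPKM in Q+GL+ and 12.4 and 13.7 FPKM in Pax3 cells. In Q-GL- against Pax3 cells it was at −0.40 (adjusted p = 0.024). That call was lost without any 1 of the 4 libraries (adjusted p = 0.051 to 0.150).

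**Figure D4:**
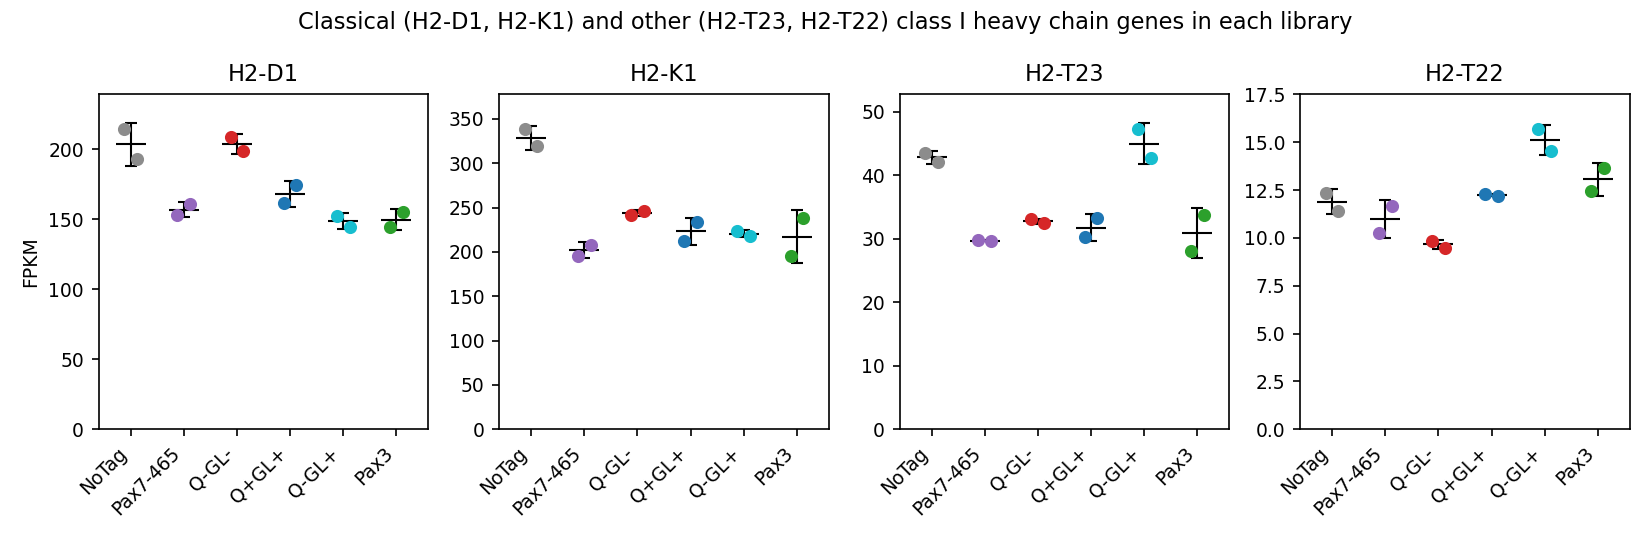
FPKM (vertical axes, each from 0) of 4 class I heavy chain genes in the 6 groups (horizontal axes), with 1 point per library and the mean ± SD of 2 libraries in black. H2-D1 lies at 209 and 199 in Q-GL- libraries, against 153 and 145 in Q-GL+ libraries, while H2-T23 and H2-T22 reach 47.2 and 15.7 in Q-GL+ libraries.

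In the stretches shown, both H2-T genes and B2m carry TTTCNNTTT, while H2-D1 and H2-K1 carry TTTCNNTTC. Of the genes with such letters, H2-D1 and B2m were higher and both H2-T genes lower in the Q-GL- libraries relative to Q-GL+. H2-K1, with the same letters as H2-D1, did not pass, at 0.14 (limma adjusted p = 0.47). Whether the letters bear on any of these changes was not tested. Of 33 interferon-induced genes on the list, 27 are in the table and 23 were tested. In Q-GL- against Q-GL+ cells 4 were lower and 0 higher, against 1.11% and 3.06% of all genes, with a median log2 fold change of −0.13 beside 0.04 for all genes. Isg15, a ubiquitin-like modifier, was 8.08 and 7.02 FPKM in Q-GL- cells, against 13.1 and 15.2 FPKM in Q-GL+ cells, at −0.82 (adjusted p = 0.0015), under all 10 alternatives.

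Oas2 and Oas1a, which make the activator of RNase L, were lower, at −0.76 (adjusted p = 0.0056) and −0.66 (adjusted p = 0.022), and so was Usp18, which removes Isg15 from proteins, at −0.50 (adjusted p = 0.041). Without single libraries these calls were lost. For Oas2 this held without Q-GL- replicate 1 or Q-GL+ replicate 2 (adjusted p up to 0.075), and for Oas1a and Usp18 without any 1 of the 4 libraries (up to 0.143 and 0.251). The Usp18 call was also lost without a filter (0.057) and without the NoTag libraries (0.060). In Q+GL+ cells Isg15 was 8.23 and 8.49 FPKM, and lower than in Q-GL+ cells, at −0.69 (adjusted p = 0.015), which was lost without any 1 of the 4 libraries (0.055 to 0.171).

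Against Pax3, Q-GL- cells were lower in 6 of the 23 interferon-induced genes and higher in 0, against 0.716% and 3.62% of all genes. Lower values relative to Pax3 were not particular to Q-GL-. The median log2 fold change of the 23 genes against Pax3 was −0.24 in Q-GL-, −0.27 in Pax7-465, −0.13 in Q+GL+ and −0.09 in Q-GL+ cells. For all genes the medians were 0.006 to 0.04. Irf7, a transcription factor of the interferon response, was 6.26 and 5.93 FPKM in Q-GL- cells, against 10.3 and 10.0 FPKM in Pax3 cells, at −0.65 (adjusted p = 0.0036), under all 10 alternatives. In Pax7-465 against Pax3 cells Irf7 was the only one of the 23 past the test, at −0.54 (limma adjusted p = 0.028). That call was lost without any 1 of the 4 libraries. Bst2, the antiviral factor tetherin, was 12.8 and 14.6 FPKM in Q-GL- cells, against 19.9 and 22.5 FPKM in Pax3 cells, at −0.59 (adjusted p = 0.0038). It was lost only without Q-GL- replicate 1 (adjusted p = 0.054).

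Of 22 genes known to control class I transcription, 21 are in the table and 19 were tested. In Q-GL- against Q-GL+ cells 1 was higher, against 3.06% of all genes. This was Socs3, an inhibitor of cytokine signaling, at 8.72 and 7.38 FPKM in Q-GL- cells, against 5.54 and 5.34 FPKM in Q-GL+ cells (log2 fold change 0.49, adjusted p = 0.022). This call was lost without either Q-GL+ library or without Q-GL- replicate 1 (adjusted p up to 0.196). Socs3 was also higher in Q-GL- cells than in Q+GL+ cells, by 0.49 (adjusted p = 0.030), and than in Pax3 cells, by 0.50 (adjusted p = 0.018). Those calls were lost without any 1 of the 4 libraries (adjusted p up to 0.270) and without Pax3 replicate 1 or Q-GL- replicate 1 (adjusted p up to 0.162). Irf1 was 16.4 to 19.8 FPKM in the 5 groups other than NoTag and passed in no comparison among them.

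For other components of the loading complex and of the proteasome few calls were made. Of 11 peptide loading and trimming partners, which include Calr, Canx, Pdia3 and Erap1, 0 passed limma in the test over the 5 groups and 0 had an unadjusted p under 0.05. Of 14 constitutive core subunits of the proteasome 0 passed, with 1 at an unadjusted p under 0.05, and of 10 activator and assembly genes 1 passed, the assembly chaperone Psmg4 (adjusted p = 0.048). Of all 12578 genes tested, 4.78% passed the same test, and 2447 had an unadjusted p under 0.05.

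Immunoproteasome subunits replace constitutive ones in the catalytic core, Psmb8 in place of Psmb5, Psmb9 in place of Psmb6 and Psmb10 in place of Psmb7. On the FPKM scale, which is per length, Psmb8 was 22.9 to 36.7% of Psmb5 in the 5 groups other than NoTag. Psmb9 was 0.48 to 1.08% of Psmb6 and Psmb10 was 0.346 to 0.711% of Psmb7. The lowest share of Psmb8 was in Q-GL+ cells, at 26.8 and 22.9%, against 29.2 and 36.7% in Pax3 cells. Psmb5 itself was 62.9 and 59.6 FPKM in Q-GL+ cells, against 54.0 and 57.0 FPKM in Pax3 cells, and Psmb5, Psmb6 and Psmb7 passed in no comparison among the 6 groups made here.

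**Figure D5:**
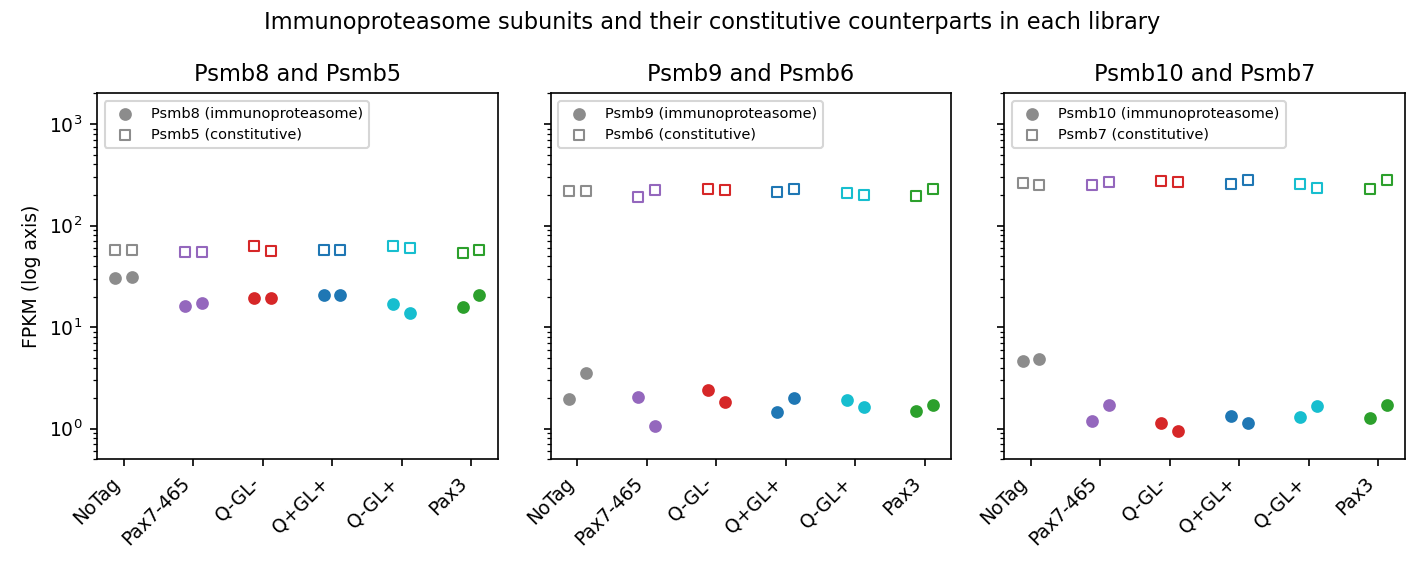
FPKM (vertical log axis) of each immunoproteasome subunit (filled circles) and the constitutive subunit it replaces (open squares) in the 6 groups (horizontal axes), with 1 point per library. Psmb8 lies within 22.9 to 36.7% of Psmb5 outside NoTag, while Psmb9 and Psmb10 lie far below Psmb6 and Psmb7.

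The NoTag libraries had more class I RNA, in a setting where 37.9% of all genes were higher and 7.94% lower than in Pax7-465 cells by the test. Of the 10 genes 7 were higher and 0 lower. The median log2 fold change of all genes was 0.19, and that of the 10 genes 0.39. The highest value was that of Psmb10, at 4.60 and 4.80 FPKM in NoTag cells, against 1.19 and 1.70 FPKM in Pax7-465 cells, with 1.23 (adjusted p = 3.6e-05), followed by Psmb8, at 30.4 and 31.3 FPKM in NoTag cells, against 16.0 and 17.2 FPKM in Pax7-465 cells, with 0.86 (adjusted p = 0.00014). H2-K1 was 338 and 319 FPKM in NoTag cells, against 196 and 208 FPKM in Pax7-465 cells, with 0.70 (adjusted p = 0.00012).

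Smaller differences of NoTag from Pax7-465 cells were those of B2m at 0.41, Cd74 at 0.38, H2-D1 at 0.37 and Tapbp at 0.36. After quantile normalization, which removes the shared shift, 4 of the 7 passed, H2-K1, Psmb8, B2m and Psmb10, and Cd74 was at 0.19 (adjusted p = 0.281). Cd74 also did not pass without a filter (0.051), without Pax7-465 replicate 1 (0.240) or without NoTag replicate 2 (0.280), and Tapbp did not pass without Pax7-465 replicate 1 (0.054).

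Compared with Q+GL+ cells, 6 of the 10 genes were higher in NoTag cells and 1 lower, against 36.9% and 9.02% of all genes. The lower one was Cd74, at −0.92 (adjusted p = 0.00022), and Psmb10 was again furthest up, at 1.35 (adjusted p = 1.6e-05). After quantile normalization Psmb10, Psmb8 and H2-K1 stayed higher and Cd74 lower, while the value of B2m was -0.025 instead of 0.23. On the FPKM as deposited the B2m call was lost without a filter (adjusted p = 0.051) or without any 1 of the 4 libraries (0.073 to 0.220), and the H2-D1 call without NoTag replicate 1 (0.169) or Q+GL+ replicate 1 (0.141).

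The NoTag libraries also differed in genes around the pathway. Erap1, the aminopeptidase that trims class I peptides, was 11.9 to 14.5 FPKM in NoTag cells, against 4.32 to 5.65 FPKM in the 5 other groups, and the difference from Pax7-465 was 1.21 (adjusted p = 6.4e-06). H2-DMa was 4.21 and 5.57 FPKM in NoTag cells, against 1.56 and 1.91 FPKM in Pax7-465 cells, and Ctsl was 447 and 455 FPKM in NoTag cells, against 117 and 136 FPKM in Pax7-465 cells. The core subunit gene Psma2 was lower, at 89.6 to 91.3 FPKM in NoTag cells, against 177 to 222 FPKM in the other groups. Pax7 itself was 157 and 159 FPKM in NoTag cells, against 109 and 113 FPKM in Pax7-465 cells, and Lyz2, an immune cell marker, was 1.24 to 1.48 FPKM in NoTag cells, against at most 0.909 FPKM in the other groups. The class I differences and the general difference of the NoTag libraries from the others cannot be told apart.

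Among the genes whose log2(FPKM + 1) followed that of Cd74 most closely over the 10 libraries other than NoTag were Spag9 (Pearson r = 0.959), Zswim6 (0.956), Kcnj3 (0.952) and Ttll7 (0.951). Kcnj3, a potassium channel subunit, ran from 15.6 to 24.9 FPKM and Spag9 from 31.2 to 42.6 FPKM. Those closest to H2-D1 were Zcchc12 (0.971), Gaa (0.968), Litaf (0.968), Lrrc17 (0.967) and Bckdha (0.963). Gaa, the lysosomal alpha-glucosidase, ran from 94.9 to 144 FPKM and Zcchc12 from 86.3 to 141 FPKM. These were picked as high values among 12578 genes over libraries that share groups, and they are given as a description.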

How the data were processed

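RNA of 12 AtT-20 libraries was analysed, 2 for each of 6 groups taken from the titles. The deposited table gives FPKM per gene. For it, the authors trimmed paired-end reads of strand-specific, ribosome-depleted libraries with Trimmomatic, mapped them to Ensembl GRCm38 (mm10) with TopHat2 and quantified genes with HOMER. The normalization total, the strand setting of the counting and how genes were selected are not given in the sources used here, and without read counts the depth and its precision are unknown. A further 4 columns of values per sample match none of the samples used and were not used here.

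After adding 1 and taking log2, a minimum of 1 FPKM in 2 or more libraries left 12578 genes for a limma-trend fit with the robust option (limma 3.58.1, statmod 1.5.0, R 4.3.3) over all 12 libraries with group as the only term. A moderated F test covered the 5 groups other than NoTag, and 12 pairs of groups were compared. P-values were Benjamini-Hochberg adjusted over all genes tested within a comparison. A count model was not run, since the table holds no counts. Summaries used Python 3.11.15 with pandas 2.3.3 and numpy 2.4.6. The fit was tested on simulated data. The alternatives were quantile normalization, a pseudocount of 0.1, no minimum other than any value above zero, a minimum of 5 FPKM, a fit without the NoTag libraries, a replicate block, and each library left out in turn. A fit that leaves 1 library in a group assumes that it varies like the others.

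The 10 genes, the gene lists and the promoter motifs were chosen with earlier results of these data known. Named from a list are up to 4 genes past the test with the smallest adjusted p in a comparison described, and for Cd74 and H2-D1 the 5 tested genes with the highest Pearson correlation, and some results under these rules are not reported here. Named beside these are the counterparts of the immunoproteasome subunits, Pax7, Tbx19 and markers at or near 0. Mif, Irf1, Pomc, H2-DMa, H2-DMb1, H2-Eb2 and list members given as examples were named after their values were seen.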

Additional observations from a re-analysis of the deposited data

How the results depend on the processing

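Cd74 was past the test in 8 comparisons among the 5 groups other than NoTag, and 4 of these calls held under every alternative run, with 10 of 80 refits losing one. After quantile normalization the number of the 10 genes past the test was 3 in Q+GL+ against Q-GL+, 1 in Q-GL- against Q+GL+, 2 in Q-GL+ against Pax3, 2 in Pax7-465 against Q-GL-, 4 in NoTag against Pax7-465, 4 in NoTag against Q+GL+ and 4 over the 5 groups, and the value of B2m in NoTag against Q+GL+ was -0.025 (adjusted p = 0.663). Without a filter it was 0 in Q+GL+ against Pax3. With 1 library left out the number was 1 to 2 in Q-GL- against Q-GL+, 0 to 3 in Q-GL- against Pax3, 0 to 1 in Q+GL+ against Pax3, 0 to 1 in Pax7-465 against Q-GL-, 0 to 1 in Pax7-465 against Q-GL+ and 1 to 3 over the 5 groups. With fewer libraries the fit has fewer samples. The cause of the other changes was not tested. The share of all genes past the test under each alternative is not reported here. Whether a changed count is particular to the 10 genes therefore cannot be told. The correlation of replicate differences between groups was −0.158 to 0.173, over 0.1 in 2 of 15 pairs of groups, so replicate numbers gave no clear pairing of libraries. The lowest values were those of Pax7-465 with Q-GL+ (−0.158), Q-GL+ with Pax3 (−0.112) and Q-GL- with Q+GL+ (−0.106). A factor shared by libraries of some groups was not tested. With the replicate block 3 of the 10 genes passed in Q-GL- against Q-GL+ (B2m at an adjusted p of 0.063), 2 in Q-GL- against Pax3, 2 over the 5 groups, 8 in NoTag against Pax7-465, 6 in NoTag against Q+GL+, and 1 in each of Q+GL+ against Q-GL+, Q-GL+ against Pax3, Q+GL+ against Pax3 and Pax7-465 against each isoform. The block also ended the calls of B2m in NoTag against Q+GL+ (adjusted p = 0.057), Usp18 in Q-GL- against Q-GL+ (0.056) and H2-T22 in Pax7-465 against Q-GL+ (0.065). A filter of 5 FPKM leaves Tap1, Psmb9 and Psmb10 untested. Depth is unknown here, and Psmb9, Psmb10 and, in Q-GL+ cells, Cd74 were near 1 FPKM.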
